A study of Mus musculus with 21 samples.

Results

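The genes described here are 33 mouse genes that build cholesterol or fatty acids in the cell or set the rate of that synthesis, taken by symbol from a list of the pathways; the list itself was drawn up with earlier results of these data known. They are 18 enzymes of the sterol pathway, 6 genes of sterol sensing and transport, and 9 genes of fatty acid synthesis, elongation and desaturation. Of the 33, 32 were matched to a row of the table of 47069 gene identifiers, and all 32 were among the 15581 genes tested. Hmgcs1, which makes HMG-CoA early in the sterol pathway, was not matched to an identifier and has no value here.

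RNA of cultured bone-marrow-derived macrophages was sequenced. The cells came from wild-type C57BL/6 mice 8 to 10 weeks old, and every group, the untreated one included, was grown with M-CSF, the growth factor that turns marrow precursors into macrophages. The 7 groups had 3 libraries each. Ctrl_0h was untreated. TNF_6h and TNF_24h received TNF, an inflammatory cytokine, for 6 or 24 h. IL_6h and IL_24h received IL-4 together with IL-13, cytokines that drive alternative activation of macrophages. IL_TNF_6h and IL_TNF_24h received IL-4, IL-13 and TNF, with each cytokine at 10 ng/ml. The only untreated group is that of 0 h, so each comparison with it also carries the time in culture. It is not stated if the 3 libraries of each group had separate cultures or mice as their source. The p-values therefore cover the spread among libraries, which may be technical.

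Cells make cholesterol from acetyl-CoA. Acat2 and HMG-CoA synthase start the chain, Mvk, Pmvk and Mvd turn mevalonate into isopentenyl diphosphate, Idi1 and Fdps make farnesyl diphosphate, Fdft1 and Sqle make and oxidise squalene, Lss closes it to lanosterol, and the later enzymes trim lanosterol to cholesterol. Most of these genes are targets of SREBP-2 (Srebf2), a membrane-bound factor that SCAP escorts to the Golgi when sterols are scarce and that the INSIG proteins hold back when sterols are plentiful. SREBP-1 (Srebf1) acts mainly on fatty acid genes, and the liver X receptors, which sense oxysterols, raise Srebf1, the stearoyl-CoA desaturases and the cholesterol exporters. In macrophages, these pathways supply membrane and lipid mediators and balance the cholesterol taken up with dead cells and lipoproteins.

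The promoters of the sterol enzymes shared a sequence feature that had no part in their choice. RefSeq start sites on GRCm38.p6 gave the 250 bases before the start for 15 of the 18 sterol enzymes, Hmgcs1 among them, for 5 of the 6 sensing genes and for 6 of the 9 fatty acid genes. Where a gene had more than 1 start site, only its first listed window was counted. The letters CCAAT, a site known to bind the factor NF-Y, stood on either strand in 13 of the 15 sterol enzyme windows (86.7%), in 4 of the 5 sensing windows and in 2 of the 6 fatty acid windows. Of the 10451 genes tested that have such a window, 36.4% held them. GGGCGG, the GC box, was in 14 of the 15 sterol enzyme windows (93.3%) against 57.9% of those of the genes tested. The E-box CACGTG was in 2 of 15, against 8.31%. TCACNCCAC, a form of the sterol response element, was in 1 of the 15, that of Hmgcs1, against 0.919%. All motifs were searched on both strands. A CCAAT site and a GC box can share their end letters, and an E-box can share CAC with a sterol response element. These matches describe letters, not binding.

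Windows are printed for Idi1, Cyp51 and Sc5d, which are among the sterol enzymes with the largest rises between 6 and 24 h, and for Fads2 and Acss2, fatty acid genes of which the former fell and the latter rose with 6 h of TNF. The capitals mark CCAAT or its reverse complement ATTGG. The Idi1 window is chr13:8885356-8885605 on the plus strand, that of Cyp51 chr5:4104698-4104947 on the minus strand and that of Sc5d chr9:42264301-42264550 on the minus strand. The Fads2 window is chr19:10101504-10101753 on the minus strand and that of Acss2 chr2:155517793-155518042 on the plus strand.
Idi1: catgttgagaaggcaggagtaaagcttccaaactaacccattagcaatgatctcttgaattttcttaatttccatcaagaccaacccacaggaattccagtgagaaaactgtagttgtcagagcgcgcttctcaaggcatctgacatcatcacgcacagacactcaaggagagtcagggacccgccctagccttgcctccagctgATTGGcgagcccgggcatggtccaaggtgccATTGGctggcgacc
Cyp51: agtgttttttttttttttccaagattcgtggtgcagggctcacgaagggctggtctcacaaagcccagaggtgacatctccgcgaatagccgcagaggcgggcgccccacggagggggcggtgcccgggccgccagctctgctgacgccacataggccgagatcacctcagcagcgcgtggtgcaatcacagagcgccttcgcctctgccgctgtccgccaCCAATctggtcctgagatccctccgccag
Sc5d: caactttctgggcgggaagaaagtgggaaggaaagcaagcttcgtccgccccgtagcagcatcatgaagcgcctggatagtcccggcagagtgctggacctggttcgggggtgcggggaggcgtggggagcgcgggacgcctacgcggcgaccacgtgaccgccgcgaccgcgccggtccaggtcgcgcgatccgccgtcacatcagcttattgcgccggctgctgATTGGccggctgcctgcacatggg
Fads2: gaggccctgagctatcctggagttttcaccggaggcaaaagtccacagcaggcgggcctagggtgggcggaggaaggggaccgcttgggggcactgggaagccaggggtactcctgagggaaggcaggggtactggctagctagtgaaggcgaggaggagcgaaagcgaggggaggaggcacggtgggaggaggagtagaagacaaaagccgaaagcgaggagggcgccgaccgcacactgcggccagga
Acss2: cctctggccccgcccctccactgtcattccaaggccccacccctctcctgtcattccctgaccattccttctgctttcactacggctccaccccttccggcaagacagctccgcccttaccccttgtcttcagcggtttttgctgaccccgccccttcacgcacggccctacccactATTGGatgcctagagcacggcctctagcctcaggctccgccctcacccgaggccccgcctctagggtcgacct
Idi1 has 2 CCAAT sites, Cyp51, Sc5d and Acss2 have 1 each, and Fads2 has 0. Acss2 has 4 GC boxes in its window, Sc5d has 2, and each of Idi1, Cyp51 and Fads2 has 1.

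Libraries held between 28063252 and 48654300 counts. The summed level of 8 macrophage genes was 11960 CPM (the count as a share of the library's total, scaled up to a fixed total and by the TMM method) in the lowest library and 40174 in the highest. Ctrl_0h replicate 2, 1 of the 3 untreated libraries, stood apart: it had the smallest total and 27761 genes with a count, where the others had 16996 to 20631. It also had the highest sums of adipocyte, B cell, acinar, neutrophil and T and NK cell genes, of 6.46, 7.98, 9.97, 1.83 and 0.338 CPM, and IL_TNF_24h replicate 3 had 24.6 CPM of hepatocyte genes, where the next library had 0.778. Adipocyte genes matter here because fat cells make fatty acids; over all libraries their sum ranged from 0 to 6.46 CPM and the next highest library had 1.32. The libraries also fell into 3 sets that the labels do not name. Xist, the X-inactivation RNA, stood at 162 to 283 CPM in the 9 Ctrl_0h and TNF libraries, at 562 to 1014 in the 6 libraries with IL-4 and IL-13 at 6 h, and at 0 to 0.145 in the 6 at 24 h, where Ddx3y of the Y chromosome was at 41.8 to 50.9. Ifi202b was at 30.3 to 64.2 CPM in the set with IL-4 and IL-13 at 6 h and at 0 in the others. Comparisons of IL_6h or IL_24h with Ctrl_0h, and of IL_24h with IL_6h, cross these sets, so cytokine and set cannot be told apart there. Nsdhl and Ebp lie on the X chromosome. The effects of TNF, alone or added to IL-4 and IL-13, were each measured inside 1 set. IL_6h replicate 2 and IL_TNF_6h replicate 3 were the lowest of their groups for Mvk, Mvd, Srebf1, Srebf2 and Scap; they also had the highest sums of fibroblast genes, 8.75 and 7.34 CPM. Sums of dendritic cell genes were 5.42 to 6.02 CPM in IL_TNF_6h against 2.28 to 3.33 in IL_6h. At 24 h they were 6.78 to 18.2 CPM in IL_TNF_24h against 2.32 to 3.47 in IL_24h. Ctrl_0h libraries ranged from 0.457 to 10.0 CPM. B cell genes summed to 3.14 to 4.33 CPM in IL_TNF_6h against 0.457 to 1.17 in IL_6h. The part of all these differences in the results was not tested.

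Changes are log2 fold changes with their standard errors (SE), and a gene is said to have risen or fallen where edgeR's quasi-likelihood test gave an adjusted p below 0.05 over all genes tested. In bulk RNA, fewer cells of a type and less RNA per cell cannot be told apart.

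Most sterol enzymes were higher after 24 h of TNF without IL-4 and IL-13 than in Ctrl_0h, but few after 6 h. Time in culture cannot be told apart from TNF here. At 6 h, 2 of the 17 measured rose and 4 fell against Ctrl_0h, beside 18.8% of all genes tested that rose and 20.5% that fell, with a median log2 change of -0.12 against -0.04 over all genes. At 24 h, 10 rose and 2 fell, beside 20.9% and 24.4%, and the median was 0.58 against -0.09. Both comparisons share the Ctrl_0h libraries. TNF_24h set directly against TNF_6h had 9 of 17 raised and 0 lowered, beside 12.7% and 10.9%, and a median of 0.54 against 0.01. The raised count at 24 h against Ctrl_0h was 10 whichever library was left out. The smaller counts were less firm: the 2 raised at 6 h came to 1 without Ctrl_0h replicate 2, TNF_6h replicate 1 or TNF_6h replicate 3, and the 2 lowered at 24 h came to 0 without TNF_24h replicate 3 and to 1 without Ctrl_0h replicate 1 or TNF_24h replicate 2.

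The fatty acid genes split under TNF. Of the 9, 3 rose and 4 fell at 6 h, beside 18.8% and 20.5% of all genes. At 24 h, 5 rose and 1 fell, beside 20.9% and 24.4%. The median of the 9 was -0.04 at 6 h, against -0.04 over all genes, and 0.34 at 24 h, against -0.09. Between TNF_6h and TNF_24h, 3 rose and 1 fell, beside 12.7% and 10.9%. The 5 raised at 24 h came to 2 without TNF_24h replicate 3 and to 3 without Ctrl_0h replicate 2, and the 1 lowered came to 2 without TNF_24h replicate 3. The 1 lowered between 6 and 24 h, Scd2, was not called without TNF_24h replicate 2 (-0.58, adjusted p = 0.0513).

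Added to IL-4 and IL-13 for 6 h, TNF changed about the same share of sterol enzymes as of all genes. Against IL_6h, 1 of 17 rose and 1 fell in IL_TNF_6h (5.88% each), beside 7.09% and 6.98% of all genes. At 24 h, 6 rose and 0 fell against IL_24h, beside 6.03% and 5.08%, with a median of 0.42 against 0.00; leaving out single libraries gave 4 to 6 raised. Of the 9 fatty acid genes, 0 rose and 3 fell at 6 h, and 3 rose and 0 fell at 24 h, beside the same shares of all genes. The 1 sterol enzyme raised at 6 h, Idi1, was not called without IL_6h replicate 1 (0.39), IL_6h replicate 3 (0.61), IL_TNF_6h replicate 2 (0.58) or IL_TNF_6h replicate 3 (0.43). The 1 lowered, Dhcr7, was joined by another without IL_TNF_6h replicate 3, for a count of 2.

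IL-4 and IL-13 alone went with lower sterol enzymes at 6 h and with a split at 24 h. In IL_6h, 3 of 17 were higher and 10 lower than in Ctrl_0h, beside 32.8% raised and 31.6% lowered over all genes, and the median was -0.63 against -0.01. In IL_24h, 9 were higher and 6 lower, beside 31.7% and 32.6%, and the median was 0.48 against -0.06. From IL_6h to IL_24h, 13 rose and 0 fell, beside 12.2% and 11.8%. The 9 fatty acid genes had 2 raised and 2 lowered in IL_6h, where the 2 raised came to 1 without Ctrl_0h replicate 3. They had 5 raised and 1 lowered in IL_24h, and 5 raised and 0 lowered from IL_6h to IL_24h, with a median of 0.98 against -0.03. The shares of all genes are those given for the sterol enzymes. Without 4 libraries together (Ctrl_0h replicate 2, IL_6h replicate 2, IL_TNF_6h replicate 3 and IL_TNF_24h replicate 1), the sterol enzymes raised numbered 10 in TNF_24h against Ctrl_0h, 11 in TNF_24h against TNF_6h, 8 in IL_TNF_24h against IL_24h and 12 in IL_24h against IL_6h, and 10 were lowered in IL_6h. Some of the 4 were low for genes described here, so these counts are not independent of the genes' own values. Calls over all genes also went up, from 3675 to 5879 in TNF_24h against TNF_6h. In IL_TNF_24h against IL_24h they went from 1731 to 2731.

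**Figure D1:**
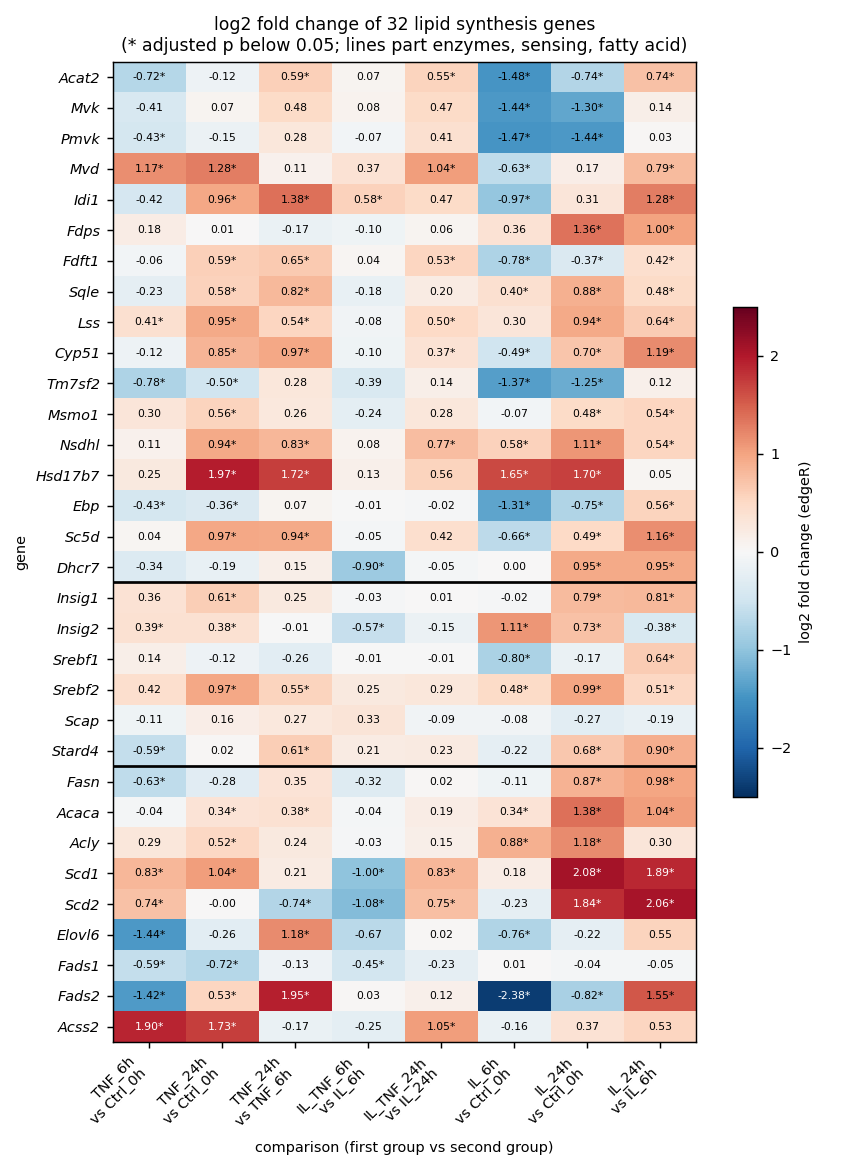
Log2 fold change of each of the 32 measured genes (rows, by branch) in 8 comparisons between pairs of groups (columns), with colour for direction and size and a mark where the adjusted p is below 0.05. Sterol enzymes show 10 raised genes in TNF_24h against Ctrl_0h and 10 lowered in IL_6h against Ctrl_0h.

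From the 6 h to the 24 h group, 8 sterol enzymes rose in both of 2 comparisons that have no library in common. In the comparison of IL_24h with IL_6h, which crosses 2 sets of libraries, time and set cannot be told apart. Nsdhl lies on the X chromosome. Acat2, Idi1, Fdft1, Sqle, Lss, Cyp51, Nsdhl and Sc5d were raised both in TNF_24h against TNF_6h (9 raised) and in IL_24h against IL_6h (13 raised), which is 88.9% of the first list and 61.5% of the second. Since 13 of the 17 enzymes (76.5%) were raised in the second comparison, a share near that size says little about which enzymes are shared. Over all genes tested, 571 were raised in both, 28.8% of the 1980 raised under TNF and 30.0% of the 1902 raised under IL-4 and IL-13. The 8 enzymes span the chain from its first step to the late ring changes. Some of these calls rested on single libraries: Lss under TNF was not called without TNF_6h replicate 2 (0.47) or TNF_24h replicate 3 (0.45), and Nsdhl under IL-4 and IL-13 was not called without IL_6h replicate 2 (0.51), IL_6h replicate 3 (0.56) or IL_24h replicate 3 (0.45).

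Idi1, the isomerase that supplies the allylic unit for chain building, had the largest of these rises among genes of 10 CPM or more. It stood at 30.9, 26.0 and 34.8 CPM in Ctrl_0h, 19.5, 23.8 and 25.2 in TNF_6h, and 55.6, 62.4 and 60.2 in TNF_24h. With IL-4 and IL-13 it was at 11.4, 19.0 and 16.4 CPM at 6 h and at 37.4, 39.6 and 36.9 at 24 h. IL_TNF_6h libraries had 18.9, 23.0 and 27.9 CPM, and those of IL_TNF_24h 57.2, 50.3 and 50.4. Every 24 h library thus lay above every Ctrl_0h library, and the 6 h groups lay at the bottom, with IL_TNF_6h overlapping IL_6h, TNF_6h and Ctrl_0h. The rise from TNF_6h to TNF_24h was 1.38 (SE 0.17, adjusted p = 6.77e-06), and that from IL_6h to IL_24h was 1.28 (SE 0.17, adjusted p = 1.05e-05).

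Cyp51, the lanosterol demethylase, followed the same course. It was at 36.0, 28.4 and 31.3 CPM in Ctrl_0h, 29.2, 29.4 and 29.5 in TNF_6h and 58.4, 54.7 and 59.5 in TNF_24h. IL_6h had 23.0, 24.4 and 20.8 CPM, and IL_24h 50.3, 55.2 and 50.4. In IL_TNF_6h it was at 21.5, 19.4 and 22.7 CPM and in IL_TNF_24h at 70.5, 62.5 and 68.8. The 24 h groups were all apart from the 6 h groups. The rise was 0.97 (SE 0.10, adjusted p = 1.29e-06) under TNF and 1.19 (SE 0.10, adjusted p = 5.76e-08) under IL-4 and IL-13. Sc5d, the lathosterol desaturase, had 20.9, 22.2 and 22.0 CPM in TNF_6h and 40.9, 38.0 and 45.8 in TNF_24h, a rise of 0.94 (SE 0.14, adjusted p = 7.23e-05). Its IL_6h libraries had 11.5, 15.9 and 12.7 CPM and its IL_24h libraries 29.9, 28.4 and 31.0, a rise of 1.16 (SE 0.14, adjusted p = 5.65e-06). Neither pair of groups overlapped.

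Mvd, which decarboxylates mevalonate diphosphate, was already high at 6 h of TNF. Its gene lies at chr8:122433596-122443422 on GRCm38.p6. Levels were 42.7, 38.4 and 39.8 CPM in Ctrl_0h, 94.3, 83.4 and 94.6 in TNF_6h, and 112, 93.3 and 88.6 in TNF_24h. Both TNF groups lay far above Ctrl_0h and overlapped each other. Mvd rose by 1.17 (SE 0.20, adjusted p = 1.33e-04) at 6 h and by 1.28 (SE 0.20, adjusted p = 4.31e-05) at 24 h. Beside IL-4 and IL-13, IL_6h libraries had 33.6, 16.4 and 28.5 CPM and IL_TNF_6h libraries 40.3, 37.9 and 23.1, groups that overlapped (0.37, SE 0.20, adjusted p = 0.305). At 24 h the added TNF raised it from 44.3, 44.7 and 46.6 CPM to 101, 88.8 and 90.1, with no overlap (1.04, SE 0.20, adjusted p = 0.00139). The fall in IL_6h against Ctrl_0h, -0.63, was not called without IL_6h replicate 2 (-0.33, adjusted p = 0.118). The difference between the TNF effects with and without IL-4 and IL-13 at 6 h was -0.80 (SE 0.29, adjusted p = 0.0585). Without the 4 libraries it was -0.88 (adjusted p = 4.76e-04). IL_6h replicate 2 and IL_TNF_6h replicate 3, which are among the 4, were the lowest of their groups for Mvd. The smaller p-value is therefore no independent support for the difference.

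The neighbouring enzymes of the mevalonate segment were lower under IL-4 and IL-13 at both times. Acat2, which condenses acetyl-CoA, had 26.4, 23.5 and 24.7 CPM in Ctrl_0h, 9.03, 8.59 and 9.05 in IL_6h and 15.9, 13.1 and 15.7 in IL_24h. Mvk, mevalonate kinase, had 52.8, 50.3 and 51.3 CPM in Ctrl_0h, 24.2, 10.8 and 22.1 in IL_6h and 20.3, 20.6 and 21.8 in IL_24h. Pmvk, the next kinase, went from 38.4, 47.8 and 35.4 CPM in Ctrl_0h to 17.0, 12.5 and 14.5 in IL_6h and 14.2, 15.5 and 15.2 in IL_24h. In all 3 genes the Ctrl_0h libraries lay above every library of both IL groups. The falls at 6 h were -1.48 (SE 0.12, adjusted p = 6.07e-09) for Acat2, -1.44 (SE 0.24, adjusted p = 3.42e-05) for Mvk and -1.47 (SE 0.16, adjusted p = 3.05e-07) for Pmvk. At 24 h Mvk and Pmvk were still down by -1.30 and -1.44, with SE of 0.24 and 0.16, and adjusted p-values of 1.00e-04 and 4.10e-07. Acat2 was down by -0.74 (SE 0.12, adjusted p = 2.41e-05) at 24 h.

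TNF alone also lowered Acat2 at 6 h, to 16.4, 15.8 and 13.3 CPM (-0.72, SE 0.12, adjusted p = 8.01e-05), and TNF_24h libraries, at 24.0, 22.9 and 21.6, overlapped Ctrl_0h. Added to IL-4 and IL-13 for 24 h, TNF raised Acat2 to 23.5, 21 and 20.8 CPM (0.55, SE 0.12, adjusted p = 0.00343), apart from IL_24h. Mvk and Pmvk had no such call: 0.47 (adjusted p = 0.262) and 0.41 (adjusted p = 0.122), although in each the IL_TNF_24h libraries lay above those of IL_24h. The fall of Pmvk at 6 h of TNF, -0.43 (adjusted p = 0.0399), was not called without Ctrl_0h replicate 1 (-0.46), Ctrl_0h replicate 2 (-0.30), TNF_6h replicate 1 (-0.48), TNF_6h replicate 2 (-0.40) or TNF_6h replicate 3 (-0.40).

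Of the enzymes around squalene, Sqle and Lss rose in both TNF_24h and IL_24h. Sqle, squalene epoxidase, was at 28.5 ± 3.39 CPM (SD, n = 3) in Ctrl_0h, 42.7 ± 4.14 in TNF_24h and 52.3 ± 1.45 in IL_24h, and it rose by 0.58 (SE 0.11, adjusted p = 1.64e-04) and 0.88 (SE 0.11, adjusted p = 7.99e-07). Lss, which closes the ring, was at 19.0 ± 3.41, 36.5 ± 3.86 and 36.5 ± 0.762 CPM in the same groups and rose by 0.95 (SE 0.15, adjusted p = 2.76e-05) and 0.94 (SE 0.14, adjusted p = 1.50e-05). Fdft1, squalene synthase, rose in TNF_24h (0.59, SE 0.10, adjusted p = 1.27e-04) but fell in IL_6h (-0.78, SE 0.10, adjusted p = 2.68e-06). In IL_24h Fdft1 was down by -0.37 (adjusted p = 0.00456), or by -0.27 (adjusted p = 0.0597) without IL_24h replicate 2.

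Beyond lanosterol the enzymes again divided. Tm7sf2, a sterol C14 reductase, had 15.6, 16.9 and 14.8 CPM in Ctrl_0h and 6.12, 5.19 and 7.01 in IL_6h, and its IL_24h libraries had 6.15, 7.31 and 6.44. TNF_6h libraries were between these, at 9.82, 8.44 and 9.25 CPM. Every treated group lay below Ctrl_0h, by -1.37 (SE 0.17, adjusted p = 8.41e-07) in IL_6h, -1.25 (SE 0.17, adjusted p = 2.61e-06) in IL_24h and -0.78 (SE 0.16, adjusted p = 8.38e-04) in TNF_6h. Ebp, the sterol isomerase, also fell in IL_6h (-1.31, SE 0.12, adjusted p = 2.74e-08) and in IL_24h (-0.75, SE 0.12, adjusted p = 2.30e-05).

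Nsdhl, which removes the C4 methyl groups together with Msmo1 and Hsd17b7, went up instead. It had 11.7, 7.91 and 12.2 CPM in Ctrl_0h, 21.2, 22.2 and 25.8 in IL_24h and 37.2, 38.4 and 42.7 in IL_TNF_24h. These 3 groups were apart from each other. The rise in IL_24h was 1.11 (SE 0.16, adjusted p = 9.57e-06), and the added TNF gave a further 0.77 (SE 0.16, adjusted p = 0.00249). Hsd17b7 was a low gene, at 2.42 ± 1.01 CPM (SD, n = 3) in Ctrl_0h, 9.59 ± 1.67 in TNF_24h, 7.70 ± 1.89 in IL_6h and 7.95 ± 0.598 in IL_24h. It rose by 1.97 (SE 0.25, adjusted p = 3.35e-06) in TNF_24h, by 1.65 (SE 0.25, adjusted p = 1.27e-05) in IL_6h and by 1.70 (SE 0.25, adjusted p = 9.80e-06) in IL_24h.

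Dhcr7, the last reductase of the chain, was the sterol enzyme that TNF lowered beside IL-4 and IL-13. IL_6h libraries had 24.6, 18.2 and 20.0 CPM and IL_TNF_6h libraries 11.9, 11.5 and 10.3, with no overlap (-0.90, SE 0.16, adjusted p = 3.89e-04). At 24 h the levels were 42.8, 41.5 and 37.3 CPM in IL_24h and 43.5, 38.7 and 34.9 in IL_TNF_24h, which overlapped (-0.05, SE 0.15, adjusted p = 0.936). The rise from IL_6h to IL_24h was 0.95 (SE 0.16, adjusted p = 1.11e-04). Fdps, at 0.840 to 4.01 CPM over the 21 libraries, was the lowest enzyme measured, and reads that also match near-identical copies could have been lost from its count. Fdft1 shares 774 bases of its locus with Ctsb, a lysosomal protease gene, and the strand setting of the counting is not given, so its values are less certain.

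**Figure D2:**
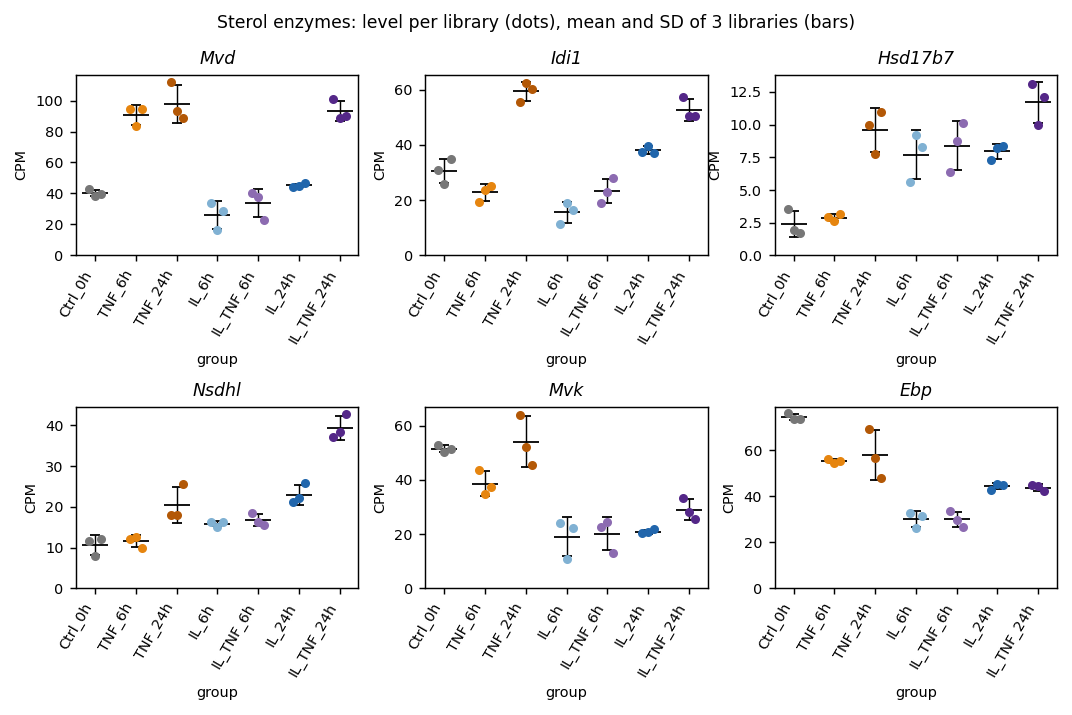
Level in CPM (vertical axis, linear from 0) of 6 sterol enzymes in the 7 groups, with a dot per library and a bar for the mean and SD of 3 libraries. Mvd is high in both TNF groups and in IL_TNF_24h, Idi1 is high in the 24 h groups, Nsdhl is highest in IL_TNF_24h, Hsd17b7 is low in Ctrl_0h and TNF_6h, and every Mvk and Ebp library of Ctrl_0h and the TNF groups lies above all libraries with IL-4 and IL-13.

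Of the sensing genes, Insig2 was highest in IL_6h, and Insig1 had its highest means in the groups with IL-4 and IL-13 at 24 h. The Insig1 libraries of TNF_24h, at 65.4 to 87.7 CPM, overlapped both of those groups. Insig2 had 18.0, 11.9 and 18.2 CPM in Ctrl_0h, 34.5, 33.6 and 35.9 in IL_6h and 27.9, 25.3 and 26.6 in IL_24h, 3 groups with no overlap. Its rise in IL_6h was 1.11 (SE 0.13, adjusted p = 4.07e-07). The added TNF brought it to 22.7, 24.8 and 22.6 CPM in IL_TNF_6h, below every IL_6h library (-0.57, SE 0.12, adjusted p = 0.00323), and to 24.2, 22.5 and 25.2 in IL_TNF_24h (-0.15, SE 0.12, adjusted p = 0.603). Insig1, itself a known SREBP target, had 50.9, 42.6 and 48.2 CPM in IL_6h and 88.6, 79.4 and 80.1 in IL_24h, a rise of 0.81 (SE 0.16, adjusted p = 8.47e-04). Over the same interval Insig2 fell by 0.38 on the log2 scale (SE 0.12, adjusted p = 0.0312), a call that was lost without IL_6h replicate 1 (-0.38, adjusted p = 0.0712), IL_6h replicate 3 (-0.35) or any of IL_24h replicates 1, 2 and 3 (-0.41, -0.35 and -0.38). The 2 changes were not tested against each other, and IL_6h and IL_24h are in different sets of libraries. Under TNF neither gene was called between 6 and 24 h (0.25, adjusted p = 0.292, for Insig1 and -0.01, adjusted p = 0.977, for Insig2).

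TNF alone gave Insig1 values of 60.3, 55.6 and 68.8 CPM at 6 h and 65.4, 66.8 and 87.7 at 24 h, against 60.2, 34.3 and 49.4 in Ctrl_0h. The 24 h libraries lay above Ctrl_0h (0.61, SE 0.16, adjusted p = 0.00451). Insig2 rose by 0.39 in TNF_6h and by 0.38 in TNF_24h. Without Ctrl_0h replicate 2, its lowest library, these values were 0.22 (adjusted p = 0.112) and 0.21 (adjusted p = 0.118). The first was also lost without TNF_6h replicate 2 (0.37) or replicate 3 (0.39), and the second without TNF_24h replicate 2 (0.34).

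The genes of the SREBP factors differed. Srebf2 had 145, 94.9 and 143 CPM in Ctrl_0h, 222, 234 and 292 in TNF_24h and 252, 250 and 258 in IL_24h, with both 24 h groups above Ctrl_0h. Its rise was 0.97 (SE 0.16, adjusted p = 8.65e-05) in TNF_24h and 0.99 (SE 0.16, adjusted p = 3.51e-05) in IL_24h. IL_TNF_24h libraries were the highest, at 328, 297 and 302 CPM (0.29 against IL_24h, SE 0.16, adjusted p = 0.356). Srebf1 had 167, 151 and 183 CPM in Ctrl_0h and 121, 72.1 and 93.3 in IL_6h, a fall of -0.80 (SE 0.17, adjusted p = 3.46e-04). At 24 h it was at 150, 149 and 147 CPM, just under Ctrl_0h (-0.17, adjusted p = 0.392). Scap was not called in any of the 8 comparisons between pairs of groups. Per kb of exon, the mean level over 21 libraries was 42.9 CPM for Srebf2, 25.1 for Srebf1 and 15 for Scap.

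Stard4, a carrier of cholesterol between membranes, had 25.3, 19.4 and 20.7 CPM in Ctrl_0h, 15.2, 14.2 and 14 in TNF_6h and 19.8, 19.0 and 27.4 in TNF_24h. The 6 h libraries were below both other groups (-0.59 against Ctrl_0h, SE 0.13, adjusted p = 0.00146). It stood at 34.5, 35.6 and 34.5 CPM in IL_24h, above IL_6h with 17.6, 20.2 and 18.3 (0.90, SE 0.13, adjusted p = 3.39e-05).

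**Figure D3:**
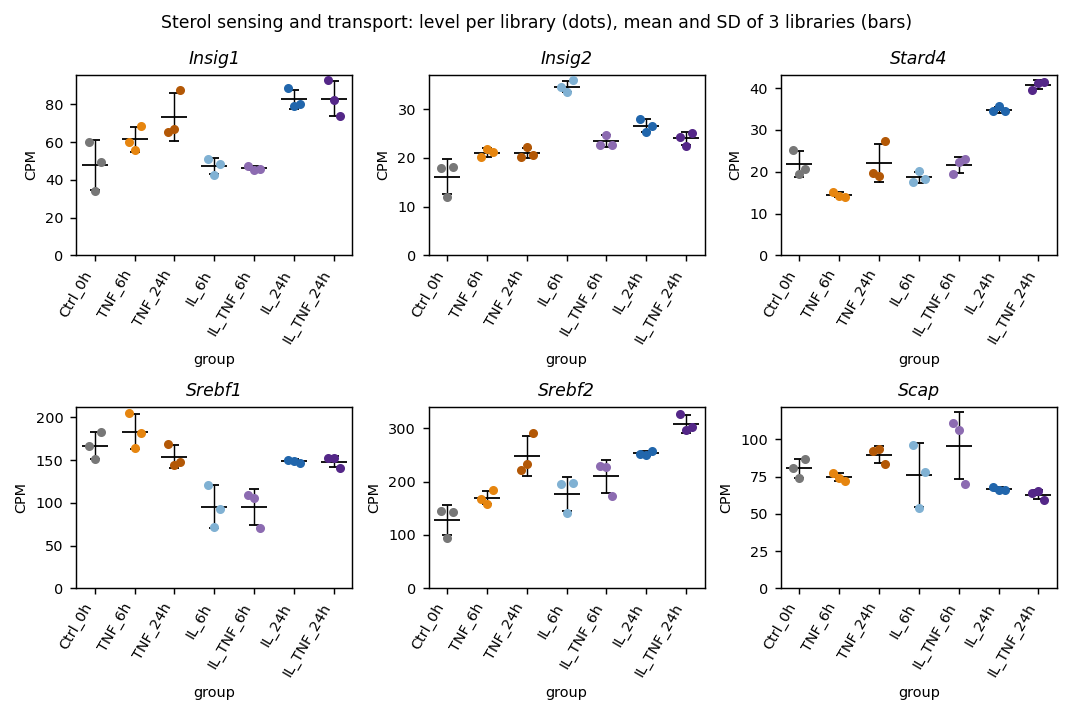
Level in CPM (vertical axis, linear from 0) of the 6 genes of sterol sensing and transport in the 7 groups, with a dot per library and a bar for the mean and SD of 3 libraries. Insig2 is highest in IL_6h at 34.6 CPM, while Insig1, Stard4 and Srebf2 have their highest means in the groups with IL-4 and IL-13 at 24 h. For Insig1 and Srebf2, the TNF_24h libraries overlap those of IL_24h.

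In the fatty acid branch, the desaturase genes Scd1 and Scd2 had the highest ratios of highest to lowest group mean of all 32 genes, 13.3 and 14.8. Their enzymes put the first double bond into palmitate and stearate. The genes are neighbours on GRCm38.p6, Scd2 at chr19:44293676-44306864 and Scd1 at chr19:44394450-44407709, and they are similar copies, so the split of reads between them is uncertain. Scd2 had 35.1, 27.7 and 35.2 CPM in Ctrl_0h, 50.7, 56.9 and 56.2 in TNF_6h and 32.3, 25.0 and 40.7 in TNF_24h. With IL-4 and IL-13 it had 26.0, 31.6 and 26.1 CPM at 6 h and 119, 117 and 114 at 24 h. Adding TNF gave 13.0, 11.9 and 14.8 CPM at 6 h and 132, 227 and 228 at 24 h. The same cytokine thus went with higher levels alone at 6 h, with lower levels beside IL-4 and IL-13 at 6 h, and with higher levels beside them at 24 h, each time with no overlap between the groups compared.

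The changes of Scd2 with TNF were 0.74 (SE 0.19, adjusted p = 0.00366) alone at 6 h, -1.08 (SE 0.19, adjusted p = 4.07e-04) beside IL-4 and IL-13 at 6 h and 0.75 (SE 0.18, adjusted p = 0.00956) beside them at 24 h. The last was 0.97 without IL_TNF_24h replicate 1, the low library, and 0.62 without replicate 2 (adjusted p = 0.0618) or replicate 3 (adjusted p = 0.0658). That library also stood apart from its group in Nr1h3, with 122 CPM against 61.9 and 60.2. Scd1 changed by 0.83 (SE 0.20, adjusted p = 0.00270), -1.0 (SE 0.21, adjusted p = 0.00189) and 0.83 (SE 0.19, adjusted p = 0.00515) in the same comparisons. Its libraries had 4.44, 2.87 and 4.44 CPM in Ctrl_0h, 7.34, 7.43 and 6.22 in TNF_6h, 7.45, 5.92 and 10.9 in TNF_24h, 4.24, 4.37 and 4.77 in IL_6h, 1.88, 2.24 and 2.57 in IL_TNF_6h, 15.5, 17.1 and 17.0 in IL_24h, and 25.3, 31.7 and 31.6 in IL_TNF_24h. Scd1 too was separate in each of these pairs. TNF_24h against Ctrl_0h was raised for Scd1 (1.04, SE 0.20, adjusted p = 3.15e-04) but not called for Scd2 (adjusted p = 1.00), whose libraries overlapped; this contrast of the 2 genes was not tested. Against Ctrl_0h, IL_24h was up by 1.84 (SE 0.19, adjusted p = 1.26e-07) for Scd2 and by 2.08 (SE 0.20, adjusted p = 5.86e-08) for Scd1.

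Over the 7 group means, the genes whose log2 levels were most like those of Scd2 among 9341 candidates were Rnf166 (Pearson r = 0.972), Vps9d1 (0.968), Clec4a2 (0.967), Scd1 (0.966) and Gabarapl1 (0.965). These r values describe 7 points that share library sets.

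Acss2, which activates acetate to acetyl-CoA, had the largest rise under TNF of the fatty acid genes. It was at 3.98, 2.54 and 4.14 CPM in Ctrl_0h, 13.1, 13.3 and 13.4 in TNF_6h and 10.3, 12.5 and 12.7 in TNF_24h. It was at 3.03, 2.65 and 3.88 CPM in IL_6h, 2.82, 2.07 and 3.12 in IL_TNF_6h, 4.81, 5.18 and 3.82 in IL_24h and 10.8, 7.55 and 10.3 in IL_TNF_24h. TNF groups lay apart from their controls except beside IL-4 and IL-13 at 6 h, where they overlapped. The changes were 1.90 (SE 0.21, adjusted p = 7.16e-07) and 1.73 (SE 0.21, adjusted p = 1.66e-06) with TNF alone, and -0.25 (SE 0.21, adjusted p = 0.586) and 1.05 (SE 0.20, adjusted p = 0.00140) with TNF added at 6 and 24 h. The noncoding gene Acss2os overlaps 9891 bases of the locus, and reads of the 2 genes may not be told apart.

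Fads2, the delta-6 desaturase of polyunsaturated fatty acids, fell at 6 h under TNF and under IL-4 and IL-13, and was higher again at 24 h. It had 27.9, 19.7 and 33.5 CPM in Ctrl_0h, 8.91, 10.6 and 10.8 in TNF_6h and 34.0, 36.1 and 46.8 in TNF_24h. IL_6h had 4.84, 5.33 and 5.46 CPM and IL_24h 14.8, 14.9 and 16.1. TNF_6h and IL_6h were both below every Ctrl_0h library, by -1.42 (SE 0.17, adjusted p = 1.45e-06) and -2.38 (SE 0.17, adjusted p = 1.42e-09). From TNF_6h to TNF_24h it rose by 1.95 (SE 0.17, adjusted p = 1.50e-07), and from IL_6h to IL_24h by 1.55 (SE 0.17, adjusted p = 1.24e-06). IL_24h libraries stayed below every Ctrl_0h library (-0.82, SE 0.16, adjusted p = 2.37e-04). TNF_24h was above Ctrl_0h by 0.53 (adjusted p = 0.0128), but by 0.34 (adjusted p = 0.0810) without Ctrl_0h replicate 2 and by 0.38 (adjusted p = 0.0916) without TNF_24h replicate 3. Added TNF left values that overlapped at both times: 6.12, 4.91 and 4.91 CPM in IL_TNF_6h and 15.2, 18.0 and 16.8 in IL_TNF_24h.

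Fads1, the delta-5 desaturase that acts after Fads2, was lower at both times of TNF. It was at 101, 78.4 and 106 CPM in Ctrl_0h, 64.7, 64.1 and 60.6 in TNF_6h and 56.3, 58.7 and 57.6 in TNF_24h. Both TNF groups lay below Ctrl_0h (-0.59, SE 0.10, adjusted p = 8.36e-05, and -0.72, SE 0.10, adjusted p = 6.61e-06). TNF added for 6 h lowered it from 98.7, 92.9 and 95.3 to 69.3, 66.9 and 73.9 CPM (-0.45, SE 0.10, adjusted p = 0.00304). Elovl6, which lengthens palmitate, was a low gene that fell from 4.36 ± 0.419 CPM (SD, n = 3) to 1.61 ± 0.226 in TNF_6h (-1.44, SE 0.23, adjusted p = 5.62e-05) and was at 3.64 ± 0.773 in TNF_24h.

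The core of fatty acid synthesis was highest in the groups with IL-4 and IL-13 at 24 h. Acaca, which makes malonyl-CoA, had 24.2, 24.8 and 20.6 CPM in Ctrl_0h and 60.7, 62.0 and 59.0 in IL_24h (1.38, SE 0.11, adjusted p = 6.13e-09). Acly, which makes cytosolic acetyl-CoA from citrate, had 117, 72.9 and 111 CPM in Ctrl_0h, 202, 165 and 187 in IL_6h and 227, 226 and 229 in IL_24h (1.18 at 24 h, SE 0.16, adjusted p = 4.74e-06). Fasn, the synthase itself, rose by 0.87 (SE 0.15, adjusted p = 3.61e-05) in IL_24h, to 173, 176 and 161 CPM from 91.1, 93.5 and 93.3. All 3 had IL_24h libraries above every Ctrl_0h library. With TNF added for 24 h, Acaca was at 68.2, 69.4 and 69.4 CPM, Acly at 264, 247 and 247, and Fasn at 156, 183 and 177. Acaca and Acly libraries of IL_TNF_24h lay above those of IL_24h and Fasn libraries overlapped, but none of the 3 was called when TNF was added, at either time (0.19, 0.15 and 0.02 at 24 h). TNF alone lowered Fasn at 6 h, to 57.2, 56.9 and 65.0 CPM (-0.63, SE 0.15, adjusted p = 0.00182).

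**Figure D4:**
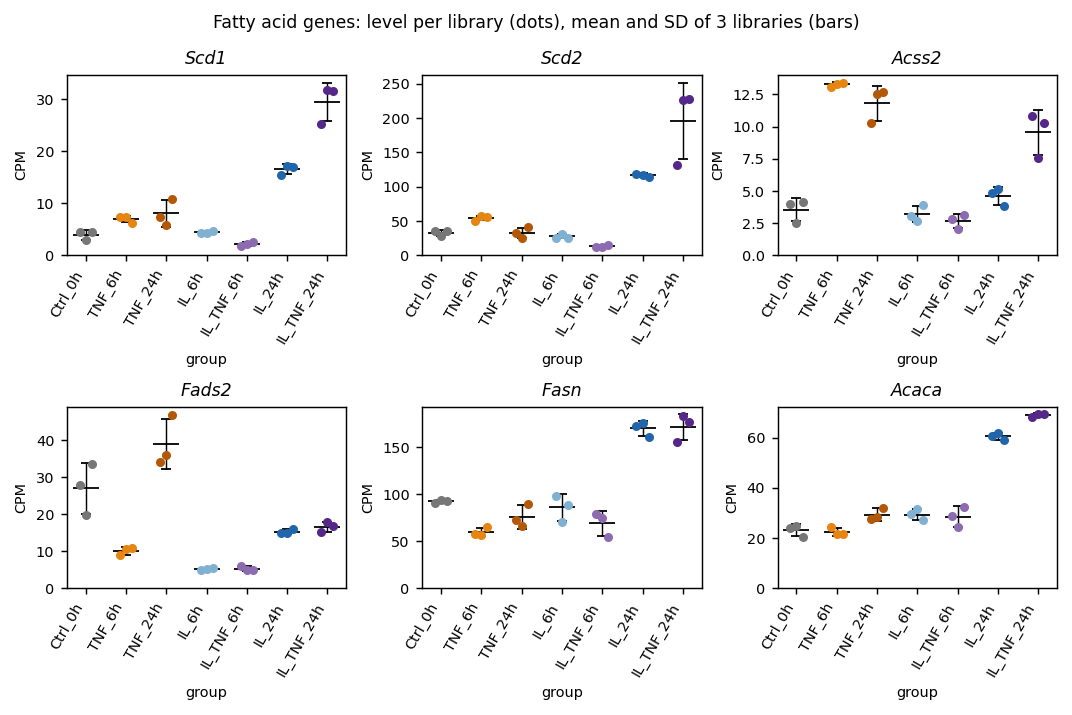
Level in CPM (vertical axis, linear from 0) of 6 fatty acid genes in the 7 groups, with a dot per library and a bar for the mean and SD of 3 libraries. Scd1 and Scd2 are highest in IL_TNF_24h and lowest in IL_TNF_6h, Acss2 is high with TNF except in IL_TNF_6h, and Fads2 is lowest in IL_6h and IL_TNF_6h.

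Whether TNF acted differently with and without IL-4 and IL-13 was tested as the difference of its 2 effects, each inside 1 set of libraries. The 2 effects come from different sets, so interleukin and set cannot be told apart in their difference. The effect without the interleukins also holds the time in culture. At 6 h, 8 of the 32 genes had such a difference: 4 higher and 4 lower with the interleukins, beside 9.27% and 9.13% of all genes. The lower ones were Scd1 (-1.83, SE 0.29, adjusted p = 1.70e-04), Scd2 (-1.82, SE 0.27, adjusted p = 8.03e-05), Acss2 (-2.15, SE 0.30, adjusted p = 4.99e-05) and Insig2 (-0.96, SE 0.18, adjusted p = 8.02e-04). The higher ones were Fads2 (1.45, SE 0.24, adjusted p = 2.69e-04), Idi1 (1.00, SE 0.24, adjusted p = 0.00554), Stard4 (0.80, SE 0.19, adjusted p = 0.00488) and Acat2 (0.79, SE 0.17, adjusted p = 0.00270). All 8 kept an adjusted p below 0.05 whichever library was left out.

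At 24 h, 4 genes were higher and 5 lower, beside 11.6% and 12.5%. Hsd17b7 (-1.41, SE 0.34, adjusted p = 0.00574) and Acat2 (0.67, SE 0.17, adjusted p = 0.00657) were called whichever library was left out. The other 7 calls, of Cyp51, Tm7sf2, Sc5d, Insig2, Srebf2, Scd2 and Fads1, were each lost without at least 1 library. The effect of TNF beside the interleukins was then compared between 24 and 6 h, times that lie in different sets of libraries. In that comparison 4 genes were higher and 0 lower, beside 1.89% and 1.78%. These were Scd1 (1.83, SE 0.28, adjusted p = 5.06e-04), Scd2 (1.82, SE 0.26, adjusted p = 2.98e-04), Acss2 (1.30, SE 0.30, adjusted p = 0.0147) and Dhcr7 (0.85, SE 0.22, adjusted p = 0.0346). Acss2 was not called without IL_6h replicate 3 (1.14), IL_TNF_6h replicate 2 (1.15) or IL_24h replicate 3 (1.19), and Dhcr7 was called only with IL_6h replicate 2 or IL_TNF_24h replicate 3 left out; without each of the others it lay between 0.71 and 0.89.

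**Figure D5:**
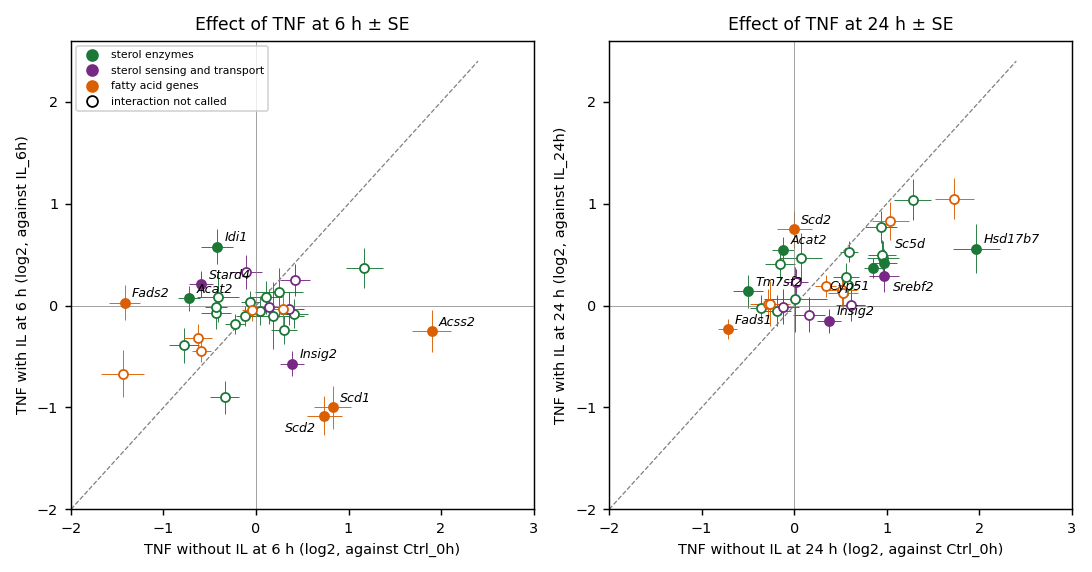
Log2 effect of TNF without the interleukins (horizontal axis) and with them (vertical axis) at 6 h (left) and 24 h (right) for 32 genes, with bars for the SE and filled points where the difference of the effects is called. The dashed line marks equal effects. Scd1, Scd2 and Acss2 lie far below it at 6 h, and Hsd17b7 at 24 h.

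Other genes of the same pathways came from 3 further lists. Of 17 other sterol and isoprenoid genes tested, 7 rose and 4 fell in TNF_6h, beside 18.8% and 20.5% of all genes, and 7 rose and 1 fell in TNF_24h, beside 20.9% and 24.4%. From TNF_6h to TNF_24h, 5 rose and 2 fell, beside 12.7% and 10.9%, and from IL_6h to IL_24h, 6 rose and 1 fell, beside 12.2% and 11.8%. Ggps1, which makes geranylgeranyl diphosphate, rose by 0.91 (SE 0.19, adjusted p = 6.70e-04) in TNF_6h. Lbr, a sterol reductase of the nuclear envelope, fell by 1.16 on the log2 scale in TNF_6h (SE 0.21, adjusted p = 1.75e-04). Of 16 other fatty acid genes, 6 rose and 3 fell in TNF_6h, and 8 rose and 5 fell in TNF_24h, beside the same shares of all genes. Acsl1, which activates long-chain fatty acids, had 23.4, 16.8 and 19.3 CPM in Ctrl_0h and 335, 368 and 319 in TNF_6h, a rise of 4.10 (SE 0.27, adjusted p = 7.22e-10). Lpin1, a phosphatidate phosphatase, had 71.6, 68.4 and 64.2 CPM in IL_24h and 14.1, 11.6 and 14.7 in Ctrl_0h, a rise of 2.34 (SE 0.16, adjusted p = 9.60e-10). TNF lowered Lpin1 beside the interleukins by -1.59 (SE 0.16, adjusted p = 6.60e-07) at 6 h and -0.76 (SE 0.15, adjusted p = 0.00207) at 24 h. Of 7 genes of the liver X receptors and their targets, 6 rose and 1, Rxra, fell in TNF_6h, beside 18.8% and 20.5% of all genes, and 5 rose and 0 fell in IL_6h, beside 32.8% and 31.6%. Nr1h3, the LXR-alpha gene, rose by 1.63 (SE 0.23, adjusted p = 3.39e-05) when TNF was added to the interleukins for 6 h, and Abcg1, a cholesterol exporter, rose by 2.09 (SE 0.13, adjusted p = 2.47e-10) in IL_24h.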

How the data were processed

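Total RNA of 21 libraries was sequenced, and the authors deposited raw counts per gene. The submitters' processing notes name the build GRCm38, featureCounts of Subread 1.6.3, TopHat2 2.0.12 and edgeR 3.28.1. No source used here gives the annotation, the strand or how mates were counted; a count of 2 was met more often than a count of 1 (30373 and 17808 values), and fragments may be counted once per mate. Identifiers were matched to symbols for 32832 of 47069 rows. Where strand is not known, genes that overlap cannot be told apart. In RefSeq, 4 of the 33 genes overlap a protein-coding gene (Fdft1, Tm7sf2, Srebf1 and Acaca), and 15 overlap another gene of any kind. Beside Acss2os, long noncoding genes overlap 7251 bases of Insig1, 11269 of Lss and 3213 of Mvd. The values of these genes carry the same limit.

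From the counts, edgeR 4.0.16 in R 4.3.3 was used with TMM scaling, its filter on low counts by group (15581 genes kept, 99.9% of counts) and the quasi-likelihood F test in 1 fit of all 21 libraries with a term per group, with Benjamini-Hochberg adjustment over all genes tested. The common biological coefficient of variation was 22.8%. Tested on simulated data for IL_TNF_6h against IL_6h (15269 genes), the fit recovered 77 of 100 genes changed 2-fold and 97 of 100 changed 4-fold, and 4 of its 178 calls were false. The changed genes were drawn from those above 1 CPM in IL_6h. Counts were drawn independently with the fitted spread of each gene, so libraries that stand apart over many genes were not simulated. Promoter windows were read from RefSeq on GRCm38.p6; exon lengths for levels per kb come from an NCBIM37 annotation.

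The genes and lists were chosen with earlier results of these data known. Values in every library are given for genes called with no overlap between the groups, at 10 CPM or more in the higher group, and among the 3 largest changes of their branch in a comparison (22 genes), and for Fasn, chosen after its values were seen; Hsd17b7, Elovl6, Sqle and Lss are given by mean and SD. Alternatives were DESeq2 1.42.0 (size factors, and its Wald test), no filter, a filter of 1 CPM in 3 libraries, the replicate number as a block, fits of only the groups compared, leaving out each library, and leaving out 4 libraries together.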

Additional observations from a re-analysis of the deposited data

Results flagged for a closer look

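These results are differences between 2 effects of TNF, each tested with edgeR's quasi-likelihood test as a difference in its own right: 8 with and without IL-4 and IL-13 at 6 h, 9 at 24 h, and 4 between 24 and 6 h beside the interleukins. They concern 15 of the 32 genes. At 6 h, 12.5% of the 32 were higher and 12.5% lower, near the 9.27% and 9.13% of all genes. At 24 h the shares were 12.5% and 15.6%, near 11.6% and 12.5%. Between times they were 12.5% and 0%, beside 1.89% and 1.78%. In each result, the 2 effects come from different sets of libraries, so set cannot be told apart from interleukin or time. A positive value means a higher log2 effect of TNF with the interleukins or, in the last comparison, at 24 h.

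At 6 h, Scd1 differed by -1.83, Scd2 by -1.82, Acss2 by -2.15 and Insig2 by -0.96. Fads2 differed by 1.45, Idi1 by 1.00, Stard4 by 0.80 and Acat2 by 0.79. For Scd1, Scd2 and Insig2 the 2 effects had opposite signs and were each called. For Insig2, the call without the interleukins was lost without Ctrl_0h replicate 2 (0.22, adjusted p = 0.112), TNF_6h replicate 2 (0.37) or TNF_6h replicate 3 (0.39). For Fads2, Stard4 and Acat2, TNF lowered the gene without the interleukins and was not called with them.

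At 24 h, Hsd17b7 differed by -1.41 and Acat2 by 0.67. The other 7 calls were each lost without at least 1 library. Cyp51, at -0.48, was not called without Ctrl_0h replicate 2 (-0.40, adjusted p = 0.0522) or IL_TNF_24h replicate 2 (-0.43, adjusted p = 0.0617). Fads1, at 0.49, was not called without Ctrl_0h replicate 3 (0.40), IL_24h replicate 2 (0.41) or IL_TNF_24h replicate 1 (0.40). Tm7sf2, at 0.65, was 0.35 (adjusted p = 0.224) without IL_TNF_24h replicate 1. Sc5d, at -0.56, was -0.42 (adjusted p = 0.122) without Ctrl_0h replicate 2. Insig2, at -0.53, was -0.36 (adjusted p = 0.0668) without the same library, and Srebf2, at -0.68, was -0.51 (adjusted p = 0.0919). Scd2, at 0.75, was 0.58 (adjusted p = 0.134) without TNF_24h replicate 2. For Tm7sf2, Sc5d, Insig2, Srebf2 and Scd2, most other single libraries also took the adjusted p past 0.05.

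Between 24 and 6 h, the effect of TNF beside the interleukins differed by 1.83 for Scd1, 1.82 for Scd2, 1.30 for Acss2 and 0.85 for Dhcr7. Scd1 and Scd2 were called whichever library was left out.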

How the results depend on the processing

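No member's change that was called in the main fit or in an alternative reversed in direction between them. Changes called in neither were not compared for direction. The replicate numbers did not pair the libraries: deviations from the group means correlated with a median r of -0.001 over 63 same-number pairs (4 over 0.1) and 0.002 over 126 different-number pairs. With the replicate block, 344 of 352 member results kept their side of the threshold, 2 were lost and 6 gained, and the sterol enzymes lower with the interleukins at 6 h numbered 1 against 0. With only the groups compared in the fit, sterol enzymes raised in IL_TNF_24h against IL_24h numbered 13 against 6, fatty acid genes raised in TNF_24h 2 against 5 and in IL_6h 1 against 2, sterol enzymes lowered in TNF_24h 1 and raised in IL_TNF_6h 0, fatty acid genes lowered in IL_TNF_24h 1, the differences at 24 h 1 higher and 5 lower (sterol) and 1 higher (fatty acid), and the sterol difference between times 2. With no filter, sterol enzymes lowered numbered 2 in TNF_6h and 0 in TNF_24h, fatty acid genes lowered in IL_6h 1, sterol differences 1 lower at 6 h and 0 higher and 1 lower at 24 h, and fatty acid differences 1 higher at 24 h. With the strict filter, 7 sterol enzymes were lowered in TNF_6h and 3 differed between times. DESeq2's Wald test gave 1 fatty acid gene lowered in IL_TNF_24h, 2 sterol enzymes lower at 6 h and 4 between times. Without the 4 libraries, sterol enzymes in IL_TNF_6h numbered 2 raised and 2 lowered, fatty acid genes lowered in IL_TNF_24h 1, sterol differences 3 lower at 6 h, 1 higher and 7 lower at 24 h and 4 between times, and all genes called numbered 5879 against 3675 in TNF_24h against TNF_6h, 2731 against 1731 in IL_TNF_24h against IL_24h and 1461 against 573 between times, where the Wald test gave 928. Leaving out single libraries gave 1 to 3 sterol enzymes raised in TNF_6h, 0 to 2 lowered in TNF_24h, 2 to 5 fatty acid genes raised and 1 to 2 lowered in TNF_24h, 0 to 1 lowered between TNF_6h and TNF_24h, 0 to 1 sterol enzymes raised and 1 to 2 lowered in IL_TNF_6h, and 1 to 2 fatty acid genes raised in IL_6h. The sterol differences ranged from 0 to 3 lower at 6 h, 1 to 3 higher and 1 to 4 lower at 24 h and 0 to 2 between times, and the fatty acid differences at 24 h from 0 to 2 higher and 0 to 1 lower. The cause of these shifts was not tested. Fdps, Elovl6, Scd1, Acss2, Hsd17b7 and Tm7sf2 had groups under 5 CPM, where few counts limit precision.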
